A study of Mus musculus with 12 samples.

Results

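Regulators of G protein signaling (RGS proteins) and the G alpha subunits they act on were followed across the 12 RNA-seq libraries of a study of bone marrow-derived macrophages (BMDMs). The genes described are Rgs1, Rgs2, Rgs10, Rgs14, Rgs16, Rgs18, Rgs19, Gna12, Gna13 and Gnai3, that is 10 of the 55335 genes in the expression table, found by their symbols. They were picked by name from their families with the values of these same libraries in view, so their levels and differences below are a description, no p-value is given for any of them, and nothing is supported by how many of them differ. BMDMs came from C57BL/6 mice aged 8 weeks, either wild-type or Nlrp3-/-, and were grown from marrow with M-CSF. The study names different suppliers for wild-type and Nlrp3-/- mice, so the source of the mice cannot be told apart from genotype. Nlrp3, the gene deleted in the second line, encodes the sensor of the NLRP3 inflammasome, and the deletion was carried by the whole animal rather than by macrophages alone. Each genotype was sampled without stimulation (control) and after LPS and ATP costimulation (LPS+ATP), given in the labels as LPS for 4 hours followed by ATP for 30 min, while the methods of the study give longer times for both agents. There were 4 groups of 3 libraries. The study calls its replicates independent in general terms, without saying whether these libraries came from separate mice or separate cultures, so errors measure the spread between these libraries.

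Heterotrimeric G proteins relay signals from cell surface receptors for chemokines, lipids, nucleotides and neurotransmitters. A receptor bound to its ligand loads GTP onto the G alpha subunit, which separates from the G beta-gamma dimer, and both then act on effectors. RGS proteins bind the GTP-loaded G alpha subunit and speed up GTP hydrolysis, which ends the signal, and in leukocytes this sets how strongly and how long cells respond to chemoattractants. Most RGS proteins described here act on the Gi and Gq classes. Rgs2 prefers Gq, and the G12 class, made up of Gna12 and Gna13, is switched off mainly by a separate group of exchange factors with an RGS-like domain.

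Values were deposited as FPKM, that is fragment counts divided by transcript length and by the mapped fragments of the library, so levels can be set side by side between genes. Summed FPKM per library ran from 283278 to 299393, 21122 to 22613 genes were above 0, and relative depths read from the smallest steps of low FPKM values spanned a factor of 1 to 1.22, while absolute read numbers are not known from these values. Nlrp3 lay between 9.24 and 10.1 FPKM in wild-type control libraries and between 32.1 and 33.6 FPKM in wild-type LPS+ATP libraries, and was listed at 0 in all 6 Nlrp3-/- libraries. Xist was at most 0.0416 FPKM in wild-type libraries and 32.8 to 56.3 FPKM in Nlrp3-/- libraries, and the Y-linked gene Ddx3y was at 7.72 to 10.9 FPKM in wild-type libraries and listed at 0 in Nlrp3-/- libraries. The sex of the donor mice and the genotype therefore cannot be told apart. All 7 macrophage markers (Adgre1, Csf1r, Cd68, Itgam, Mertk, Fcgr1 and Lyz2) were present in every group, with sums of 19866 to 21046 FPKM in wild-type control, 11262 to 11335 FPKM in wild-type LPS+ATP, 18976 to 19222 FPKM in Nlrp3-/- control and 10580 to 10829 FPKM in Nlrp3-/- LPS+ATP libraries. Most of that sum was Lyz2, at a mean of 18464, 9471, 17693 and 9309 FPKM in the same order of groups, whereas Adgre1 went from 237 to 460 FPKM in wild-type and from 184 to 327 FPKM in Nlrp3-/- BMDMs, and Fcgr1 from 51.2 to 204 and from 38.5 to 124 FPKM. The 5 fibroblast markers summed to 157 to 161, 180 to 183, 1164 to 1180 and 890 to 905 FPKM, and the 6 granulocyte markers to 29.0 to 31.1, 6.48 to 7.40, 226 to 237 and 18.6 to 23.5 FPKM, in the same order of groups. Both marker sums were higher in every Nlrp3-/- library than in any wild-type library under the same treatment, and their part in the differences by genotype below was not tested.

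The promoters of 4 of the genes are shown because, within each family, one gene was lower and another higher with LPS+ATP in both genotypes: Rgs2 against Rgs16, and Gna12 against Gna13. Sequences are those of RefSeq on the mouse build GRCm38.p6, which is not the build named in the submitters' notes, and only bases upstream of the outermost annotated gene start are printed, 5′ to 3′ on the strand of the gene. Capitals mark the letters of 3 motifs that were found in them on either strand: CCAAT (reverse ATTGG), the GC box GGGCGG (reverse CCGCCC) and, in Gna13 alone of the 4, the letters of the interferon-stimulated response element (ISRE), which are GAAA, any 2 bases and GAAA.
Rgs2, chr1:144004162-144004399, minus strand: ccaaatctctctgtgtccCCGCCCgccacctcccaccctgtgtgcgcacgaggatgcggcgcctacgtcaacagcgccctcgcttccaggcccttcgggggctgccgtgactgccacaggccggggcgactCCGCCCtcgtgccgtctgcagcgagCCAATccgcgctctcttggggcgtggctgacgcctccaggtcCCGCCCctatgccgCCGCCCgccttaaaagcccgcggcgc
Rgs16, chr1:153740103-153740348, plus strand: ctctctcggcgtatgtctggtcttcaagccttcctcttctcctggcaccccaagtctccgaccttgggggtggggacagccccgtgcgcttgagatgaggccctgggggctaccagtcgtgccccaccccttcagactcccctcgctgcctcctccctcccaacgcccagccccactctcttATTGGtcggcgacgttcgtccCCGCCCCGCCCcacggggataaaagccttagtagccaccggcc
Gna12, chr5:140830432-140830681, minus strand: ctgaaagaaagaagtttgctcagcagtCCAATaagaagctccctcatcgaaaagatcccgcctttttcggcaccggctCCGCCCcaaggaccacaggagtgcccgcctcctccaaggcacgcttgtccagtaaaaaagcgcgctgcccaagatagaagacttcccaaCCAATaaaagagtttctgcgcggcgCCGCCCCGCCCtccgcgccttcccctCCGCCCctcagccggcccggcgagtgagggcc
Gna13, chr11:109362544-109362793, plus strand: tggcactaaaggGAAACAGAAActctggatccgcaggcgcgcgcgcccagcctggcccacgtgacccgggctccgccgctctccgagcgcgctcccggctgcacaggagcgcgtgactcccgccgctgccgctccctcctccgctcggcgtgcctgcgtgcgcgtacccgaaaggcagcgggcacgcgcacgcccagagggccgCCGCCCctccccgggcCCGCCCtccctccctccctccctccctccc
Positions are counted back from the RefSeq start, which lies 12 bases beyond the last printed base of Rgs2, 4 beyond that of Rgs16 and directly after that of Gna12. CCAAT letters stood at 94 to 90 bases before the start of Rgs2, at 68 to 64 bases before that of Rgs16 (as ATTGG) and at 83 to 79 bases before that of Gna12, with a further match in Gna12 farther upstream. In Rgs16 and in Gna12, 2 of the GC boxes overlap each other by 1 letter and form a single run in capitals.

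All motifs were searched on both strands. In all, 7 of the 10 genes had a RefSeq promoter, and Rgs1, Rgs14 and Rgs18 had no entry. The 7 genes had 9 promoters, since Rgs19 had several. A gene counted when any of its promoters had a match, whereas the percentages below are of single promoters. Over the 250 bases upstream of the start, CCAAT was found in 3 of the 7 (Rgs2, Rgs16 and Gna12) and in 33.8% of all 32851 promoters of that length, and the GC box in 6 of the 7 (all but Gnai3) and in 32.7% of all promoters. The NF-kB letters, which are GGGA, any 2 bases and TTCC, were found in Gnai3 alone of the 7 and in 1.21% of all promoters, the ISRE letters in Gna13 alone and in 2.98%, and the PU.1 letters GAGGAAGT (reverse ACTTCCTC) in Rgs19 alone and in 2.44%. The AP-1 letters TGACTCA, the cAMP response element TGACGTCA and the TATA box TATAAA were in none of the 7, against 4.46%, 1.55% and 12.4% of all promoters. No match of one motif overlapped a match of another. These are matches of letters only.

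With LPS and ATP costimulation, Rgs2, Rgs10 and Rgs18 were lower and Rgs16 was higher in both genotypes, and Gna12 was lower while Gna13 was higher. Differences were computed as log2(FPKM + 1) in a limma fit over the 12622 genes with at least 1 FPKM in at least 3 libraries, and a gene was called at an adjusted p under 0.05 together with a log2 difference of at least 1 in either direction. All 10 genes passed the filter on low values, Rgs16 through the groups other than wild-type control, where it was under 1 FPKM in all 3 libraries. In wild-type BMDMs, 5 of the 10 were called, 1 higher (Rgs16) and 4 lower (Rgs2, Rgs10, Rgs18 and Gna12), where 19.4% of all tested genes were called, 8.25% higher and 11.2% lower. In Nlrp3-/- BMDMs the same 5 genes were called in the same directions, with 14.8% of all tested genes called, 6.64% higher and 8.21% lower. With no limit on fold, 9 of the 10 passed an adjusted p under 0.05 in each genotype, against 76.4% of all tested genes in wild-type and 74.3% in Nlrp3-/- BMDMs. The median difference of the 10 was -0.44 in wild-type and -0.47 in Nlrp3-/- BMDMs, and that of all tested genes was -0.25 and -0.24. Scaling the libraries by median ratios moved the medians of all tested genes up by 0.24 and 0.23, and the same counts of 1 higher and 4 lower were found after it. In bulk libraries, fewer cells of a type and less RNA per cell cannot be told apart.

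**Figure D1:**
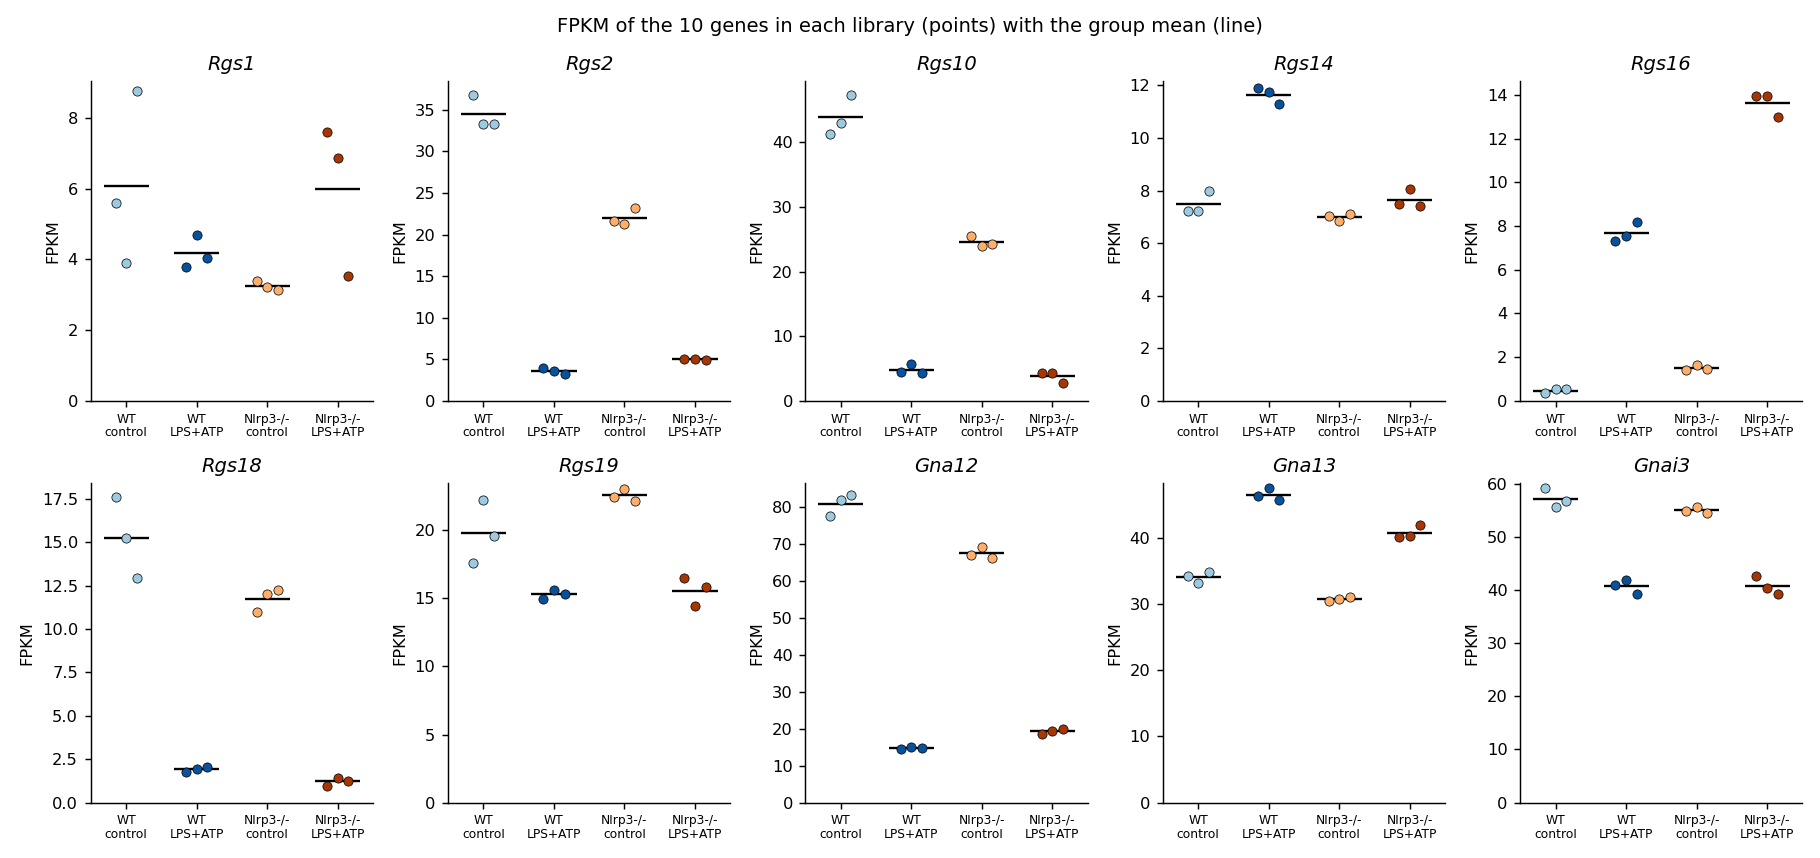
FPKM (vertical axis, linear, from 0, with its own scale for each gene) of the 10 genes in each of the 12 libraries, drawn as points by group with the group mean as a line. Rgs2, Rgs10, Rgs18 and Gna12 lie far lower in both LPS+ATP groups than in both control groups, Rgs16 lies higher, and Rgs1 is the gene whose points scatter most within wild-type control (3.89 to 8.76 FPKM) and Nlrp3-/- LPS+ATP (3.53 to 7.60 FPKM).

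Rgs2, a small RGS protein that acts chiefly on Gq, was at 36.8, 33.2 and 33.3 FPKM in wild-type control, 3.99, 3.63 and 3.23 FPKM in wild-type LPS+ATP, 21.6, 21.2 and 23.1 FPKM in Nlrp3-/- control and 5.09, 4.98 and 4.95 FPKM in Nlrp3-/- LPS+ATP libraries. The 4 groups did not overlap: Nlrp3-/- control libraries lay below wild-type control libraries, but Nlrp3-/- LPS+ATP libraries lay above wild-type LPS+ATP libraries. The mean was 9.53-fold lower with LPS+ATP in wild-type and 4.39-fold lower in Nlrp3-/- BMDMs, which on the log2 scale was -2.94 (SE 0.06) and -1.94 (SE 0.06).

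Rgs10, an RGS protein abundant in macrophages and microglia that acts on Gi, was at 41.3, 43.0 and 47.3 FPKM in wild-type control, 4.49, 5.63 and 4.36 FPKM in wild-type LPS+ATP, 25.4, 23.9 and 24.2 FPKM in Nlrp3-/- control and 4.38, 4.29 and 2.83 FPKM in Nlrp3-/- LPS+ATP libraries. The control groups were apart from each other, with the wild-type libraries higher, whereas the LPS+ATP groups overlapped. The mean was 9.08-fold lower with LPS+ATP in wild-type and 6.40-fold lower in Nlrp3-/- BMDMs, with log2 differences of -2.95 (SE 0.12) and -2.42 (SE 0.12).

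Rgs18, best known from platelets and megakaryocytes, was at 17.6, 15.3 and 12.9 FPKM in wild-type control, 1.78, 1.96 and 2.04 FPKM in wild-type LPS+ATP, 10.998, 12.03 and 12.2 FPKM in Nlrp3-/- control and 0.965, 1.44 and 1.25 FPKM in Nlrp3-/- LPS+ATP libraries. The groups did not overlap, and within each treatment the Nlrp3-/- libraries were the lower ones. The mean was 7.94-fold lower with LPS+ATP in wild-type and 9.66-fold lower in Nlrp3-/- BMDMs, with log2 differences of -2.47 (SE 0.10) and -2.53 (SE 0.10). The 5 platelet and megakaryocyte markers (Itga2b, Gp9, Gp1bb, Gp6 and Ppbp) did not follow this order of groups. They summed to 35.7 to 41.1 FPKM in wild-type control and 95.4 to 97.0 FPKM in wild-type LPS+ATP libraries. In Nlrp3-/- BMDMs the sums were 122 to 130 FPKM in control and 41.0 to 43.5 FPKM in LPS+ATP libraries. Most of the sum was Ppbp, at a mean of 31.3, 80.4, 108 and 33.1 FPKM in the same order of groups. Gp6, at 0.214, 1.41, 0.523 and 1.68 FPKM, was higher with LPS+ATP in both genotypes. None of the 5 was at 0 in every library of a group, and their part in the level of Rgs18 was not tested.

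Rgs16, an RGS protein that acts on Gi and Gq and is known as an inducible gene of activated leukocytes, was the one RGS transcript of the 7 called higher. It was at 0.354, 0.524 and 0.547 FPKM in wild-type control, 7.31, 7.55 and 8.18 FPKM in wild-type LPS+ATP, 1.40, 1.65 and 1.44 FPKM in Nlrp3-/- control and 13.95, 13.93 and 12.98 FPKM in Nlrp3-/- LPS+ATP libraries. The groups did not overlap, and in each treatment every Nlrp3-/- library was above every wild-type library. The log2 difference with LPS+ATP was 2.56 (SE 0.07) in wild-type and 2.55 (SE 0.07) in Nlrp3-/- BMDMs. Since 1 FPKM is added before the log, these values understate the change of a gene this low in control cells, and the ratio of the mean FPKM was 16.2-fold in wild-type and 9.10-fold in Nlrp3-/- BMDMs. An exon of Rgs16 shares 236 bases with the opposite-strand gene Gm28513, which reached at most 0.269 FPKM, and the strand used in counting is not stated.

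Rgs14, a scaffold that joins an RGS domain to a GoLoco motif binding Gi subunits, differed less. It was at 7.22, 7.22 and 7.99 FPKM in wild-type control, 11.9, 11.7 and 11.3 FPKM in wild-type LPS+ATP, 7.05, 6.85 and 7.11 FPKM in Nlrp3-/- control and 7.49, 8.05 and 7.40 FPKM in Nlrp3-/- LPS+ATP libraries. The wild-type LPS+ATP libraries stood above all 9 others, while wild-type control and Nlrp3-/- LPS+ATP libraries overlapped. The log2 difference with LPS+ATP was 0.58 (SE 0.05) in wild-type and 0.11 (SE 0.05) in Nlrp3-/- BMDMs, both under the limit of 1.

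Rgs1, an RGS protein of lymphocytes and other leukocytes that limits chemokine receptor signaling, was at 5.60, 3.89 and 8.76 FPKM in wild-type control, 3.80, 4.68 and 4.04 FPKM in wild-type LPS+ATP, 3.38, 3.23 and 3.15 FPKM in Nlrp3-/- control and 7.60, 6.87 and 3.53 FPKM in Nlrp3-/- LPS+ATP libraries. Wild-type control, wild-type LPS+ATP and Nlrp3-/- LPS+ATP libraries overlapped one another, and only the Nlrp3-/- control libraries lay below every other library. Its SE of 0.26 on the log2 scale was the highest of the 10, with differences of -0.40 in wild-type and 0.67 in Nlrp3-/- BMDMs.

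Rgs19, also named GAIP and active on Gi subunits, differed little between groups. It ran from 17.6 to 22.3 FPKM in wild-type control, 14.97 to 15.6 FPKM in wild-type LPS+ATP, 22.1 to 23.1 FPKM in Nlrp3-/- control and 14.4 to 16.5 FPKM in Nlrp3-/- LPS+ATP libraries. Control libraries lay above LPS+ATP libraries in both genotypes, and the genotypes overlapped within each treatment. Log2 differences with LPS+ATP were -0.35 (SE 0.07) in wild-type and -0.51 (SE 0.07) in Nlrp3-/- BMDMs. After median-ratio scaling they were -0.05 and -0.22.

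Summed over the 22 RGS genes listed, the level came to 131 ± 2.61 FPKM (mean ± SD, n = 3 in each group) in wild-type control, 52.4 ± 1.38 in wild-type LPS+ATP, 100.1 ± 0.531 in Nlrp3-/- control and 58.2 ± 3.49 in Nlrp3-/- LPS+ATP libraries. The 7 RGS genes described here held 97.4%, 93.9%, 92.5% and 90.8% of that sum. Rgs2 and Rgs10 together held 59.8 ± 0.642% of it in wild-type control and 46.5 ± 1.03% in Nlrp3-/- control libraries, but 16.1 ± 1.32% and 15.2 ± 0.723% with LPS+ATP. The share of Rgs16 went from 0.363 ± 0.0774% to 14.7 ± 0.952% in wild-type and from 1.496 ± 0.143% to 23.4 ± 0.513% in Nlrp3-/- BMDMs. The shares of Rgs19 and Rgs14 were also higher, although the level of Rgs19 was lower: Rgs19 went from 15.2% to 29.2% in wild-type and from 22.5% to 26.8% in Nlrp3-/- BMDMs, and Rgs14 from 5.71% to 22.2% and from 6.996% to 13.2%. With LPS+ATP, Rgs19 held the largest share of the sum in both genotypes, followed by Rgs14 in wild-type and by Rgs16 in Nlrp3-/- BMDMs. As a ratio of FPKM, Rgs16 over Rgs2 was 0.0139 ± 0.00373 in wild-type control, 2.15 ± 0.353 in wild-type LPS+ATP, 0.0682 ± 0.00848 in Nlrp3-/- control and 2.72 ± 0.0892 in Nlrp3-/- LPS+ATP libraries, so the order of these 2 genes was turned around in every stimulated library.

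**Figure D2:**
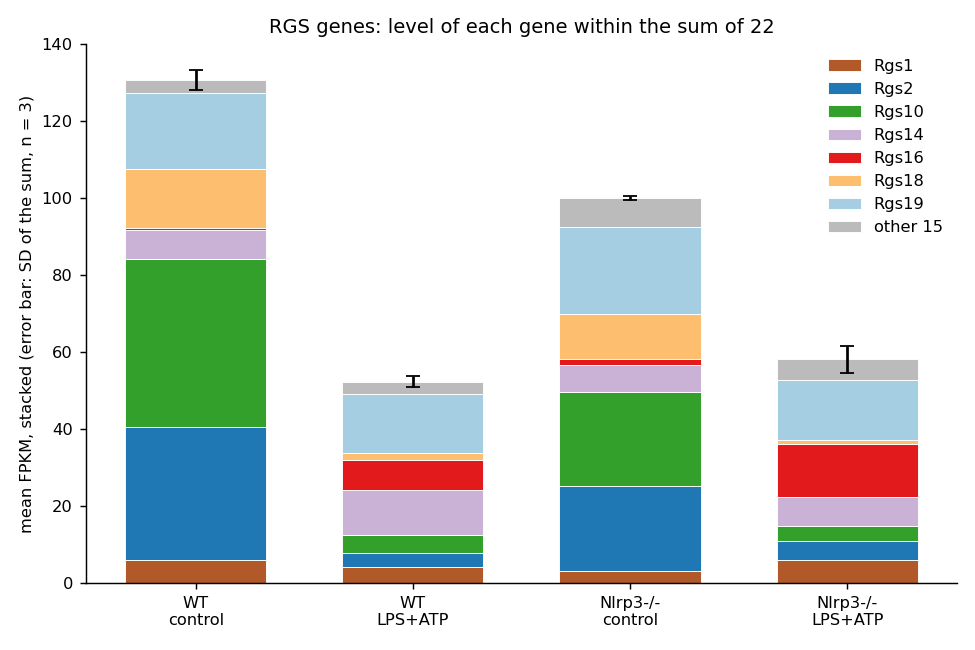
Mean FPKM of each RGS gene, stacked from 0 to the sum over 22 RGS genes, for the 4 groups, with the SD of the sum over 3 libraries as an error bar and the 15 RGS genes outside the 7 drawn in grey. The sum is 131 FPKM in wild-type control and 52.4 FPKM in wild-type LPS+ATP, with Rgs2 and Rgs10 the largest parts that shrink, while Rgs16 goes from 0.363% to 14.7% of the sum and Rgs14 from 5.71% to 22.2%.

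Among G alpha subunits, Gna12 was at 77.3, 81.7 and 83.0 FPKM in wild-type control, 14.4, 14.9 and 14.9 FPKM in wild-type LPS+ATP, 66.9, 69.2 and 66.2 FPKM in Nlrp3-/- control and 18.6, 19.2 and 20.01 FPKM in Nlrp3-/- LPS+ATP libraries. The groups did not overlap, and as with Rgs2 the genotypes stood in opposite order in control and stimulated cells. Its mean was 5.47-fold lower with LPS+ATP in wild-type and 3.49-fold lower in Nlrp3-/- BMDMs, with log2 differences of -2.38 (SE 0.04) and -1.75 (SE 0.04). Exons of Gna12 share 456 bases with the opposite-strand gene Amz1, which was at 4.19 to 5.10, 1.01 to 1.15, 4.35 to 4.68 and 0.452 to 0.679 FPKM in the 4 groups, and reads of the pair in those bases cannot be told apart without strand.

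Gna13, its paralog, which like Gna12 acts on the actin cytoskeleton through exchange factors, was at 34.2, 33.1 and 34.9 FPKM in wild-type control, 46.3, 47.4 and 45.7 FPKM in wild-type LPS+ATP, 30.4, 30.8 and 31.03 FPKM in Nlrp3-/- control and 40.1, 40.3 and 41.8 FPKM in Nlrp3-/- LPS+ATP libraries. LPS+ATP libraries lay above all control libraries, and within each treatment the wild-type libraries were the higher ones. The log2 differences with LPS+ATP, 0.44 (SE 0.03) in wild-type and 0.39 (SE 0.03) in Nlrp3-/- BMDMs, were both under the limit of 1. Exons of Gna13 share 151 bases with the opposite-strand gene Gm11696, at most 0.995 FPKM. The ratio of Gna12 to Gna13 was 2.37 ± 0.105 in wild-type control, 0.317 ± 0.00766 in wild-type LPS+ATP, 2.19 ± 0.0569 in Nlrp3-/- control and 0.473 ± 0.00756 in Nlrp3-/- LPS+ATP libraries, so Gna12 was the more abundant of the pair in every control library and Gna13 in every stimulated one.

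Gnai3, a Gi subunit that lowers cAMP and serves chemoattractant receptors, ran from 55.7 to 59.2 FPKM in wild-type control, 39.3 to 42.0 FPKM in wild-type LPS+ATP, 54.6 to 55.6 FPKM in Nlrp3-/- control and 39.4 to 42.6 FPKM in Nlrp3-/- LPS+ATP libraries. The 2 control groups did not overlap by a narrow margin and the 2 LPS+ATP groups did. Log2 differences with LPS+ATP were -0.48 (SE 0.04) in wild-type and -0.42 (SE 0.04) in Nlrp3-/- BMDMs. After median-ratio scaling they were -0.17 and -0.13. Summed over the 16 G alpha genes listed, the level was 485 ± 4.02 FPKM in wild-type control, 288 ± 5.04 in wild-type LPS+ATP, 434 ± 4.03 in Nlrp3-/- control and 285 ± 2.51 in Nlrp3-/- LPS+ATP libraries. Gnai2, the main Gi subunit of leukocytes, held 47.4%, 46.3%, 44.4% and 42.5% of that sum. Gna12 held 16.6 ± 0.477% and 15.5 ± 0.229% in the control groups and 5.12 ± 0.0991% and 6.76 ± 0.295% in the LPS+ATP groups of wild-type and Nlrp3-/- BMDMs, and Gna13 held 7.02 ± 0.192% and 7.09 ± 0.0847% against 16.2 ± 0.0785% and 14.3 ± 0.460%.

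**Figure D3:**
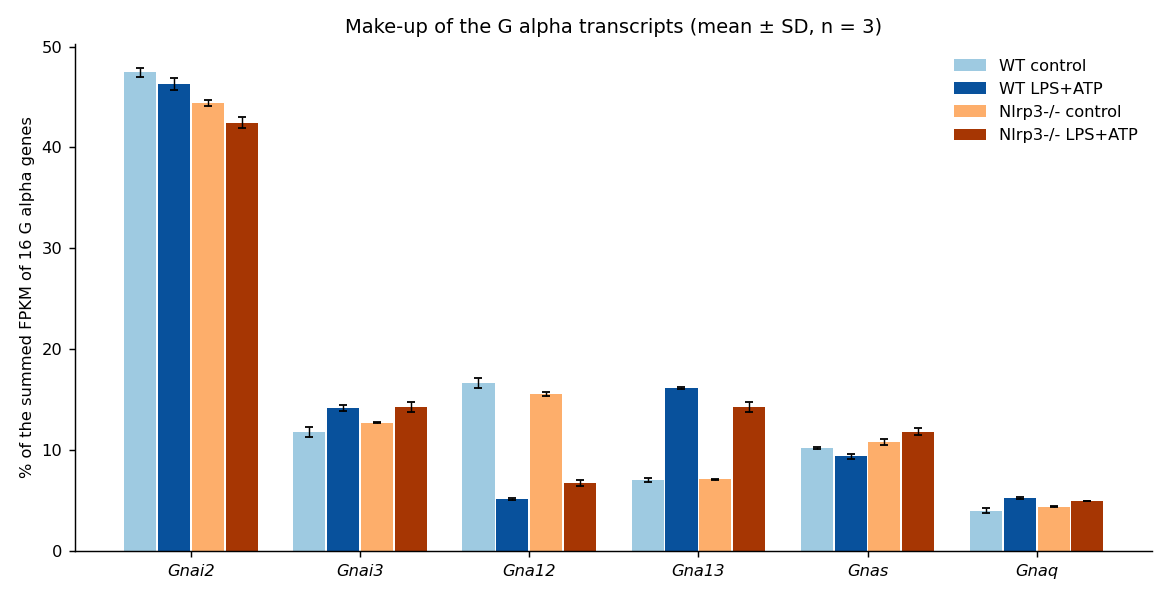
Percent of the summed FPKM of 16 G alpha genes (vertical axis, from 0) held by each of the 6 genes with the largest shares, as the mean of 3 libraries with its SD, for the 4 groups. Gna12 drops from 16.6% to 5.12% in wild-type BMDMs while Gna13 goes from 7.02% to 16.2%, and Gnai2 stays the largest part in each group.

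In control BMDMs, none of the 10 genes was called between the genotypes, where 6.71% of all tested genes were called, 6.02% higher and 0.689% lower in Nlrp3-/- BMDMs. At an adjusted p under 0.05 with no limit on fold, 7 of the 10 passed against 47.8% of all tested genes. Log2 differences of Nlrp3-/- minus wild-type were farthest below 0 in Rgs10 (-0.81, SE 0.12, 1.79-fold lower), Rgs1 (-0.68, SE 0.26) and Rgs2 (-0.62, SE 0.06, 1.57-fold lower), and Rgs16 was farthest above 0 (0.76, SE 0.07, a 3.15-fold ratio of mean FPKM). Rgs10 at -1.001 was past the limit after median-ratio scaling, which moved the median of all tested genes by -0.15, and Rgs16 was past it with a pseudocount of 0.1 (1.49) and as TPM (1.23). Differences of Gna12 (-0.26, SE 0.04), Gna13 (-0.14, SE 0.03) and Gnai3 (-0.06, SE 0.04) were smaller, and Rgs19 at 0.18 (SE 0.07) was at -0.01 after that scaling.

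With LPS+ATP, none of the 10 was called between the genotypes either, against 5.05% of all tested genes, 4.48% higher and 0.570% lower, and 6 of the 10 passed the adjusted p alone against 48.5% of all tested genes. Rgs16 was 1.77-fold higher in Nlrp3-/- BMDMs (0.75, SE 0.07), Rgs2 1.39-fold higher (0.38, SE 0.06) and Gna12 1.31-fold higher (0.37, SE 0.04). Rgs14 was 1.52-fold lower (-0.55, SE 0.05), Rgs18 1.58-fold lower (-0.40, SE 0.10) and Gna13 1.14-fold lower (-0.19, SE 0.03). Rgs19 (0.02, SE 0.07) and Gnai3 (0.00, SE 0.04) had the differences nearest 0, at -0.18 and -0.21 after median-ratio scaling, which moved the median of all tested genes by -0.17.

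**Figure D4:**
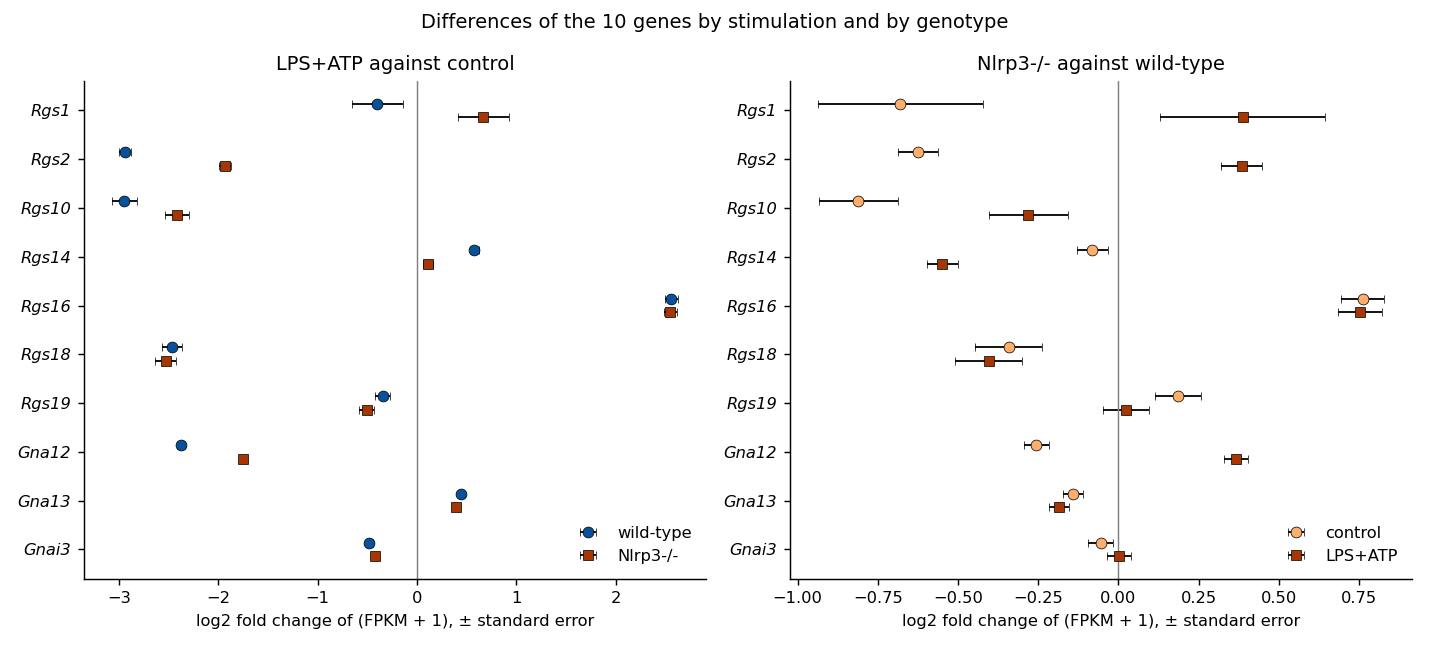
Log2 differences of (FPKM + 1) with their standard errors for the 10 genes, on the left LPS+ATP against control in wild-type (circles) and Nlrp3-/- (squares) BMDMs and on the right Nlrp3-/- against wild-type in control (circles) and LPS+ATP (squares) libraries. On the left Rgs16 lies at 2.56 and 2.55 and Gna12 at -2.38 and -1.75, and on the right Rgs1, Rgs2 and Gna12 lie below 0 in control libraries and above 0 with LPS+ATP.

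The difference between genotypes in the response to LPS+ATP, taken as the response in Nlrp3-/- minus that in wild-type BMDMs, was called in 2 of the 10, Rgs1 (1.07, SE 0.36) and Rgs2 (1.01, SE 0.09), where 2.15% of all tested genes were called, 0.721% in this direction and 1.43% in the other. Both values stood just past the limit of 1. Rgs1 was no longer called with a pseudocount of 0.1, with no filter, after median-ratio scaling, with no variance trend or with the replicate block, which left Rgs2 alone. The count of 2 fell to 0 without wild-type control library 1, wild-type LPS+ATP library 3, Nlrp3-/- control library 1 or 2, or Nlrp3-/- LPS+ATP library 1, and to 1 (Rgs2) without wild-type control library 3, wild-type LPS+ATP library 1 or 2, Nlrp3-/- control library 3 or Nlrp3-/- LPS+ATP library 2. The adjusted p alone was passed by 5 of the 10, against 27.7% of all tested genes, with Gna12 at 0.62 (SE 0.05), Rgs10 at 0.53 (SE 0.18) and Rgs14 at -0.47 (SE 0.07) beside those 2. Rgs16 (-0.01, SE 0.10), Rgs18 (-0.06, SE 0.15), Gna13 (-0.04, SE 0.04) and Gnai3 (0.06, SE 0.05) had values near 0, although Rgs16 was at -0.67 with a pseudocount of 0.1. The comparisons share libraries, so their values are not independent of one another.

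Rgs1, Rgs2 and Rgs18 are neighbours. In the GENCODE M21 and RefSeq order of protein-coding genes on chromosome 1, Rgs2, Rgs13, Rgs1, Rgs21 and Rgs18 follow one another on the minus strand between Uchl5 and Brinp3. Of these 5, Rgs13 and Rgs21 did not reach the filter on low values. With LPS+ATP in wild-type BMDMs, Rgs2 and Rgs18 at the outer positions differed by -2.94 and -2.47, and Rgs1 between them by -0.40. Rgs16 lies elsewhere on chromosome 1, and the other 6 genes lie on chromosomes 2 (Rgs19), 3 (Gnai3), 5 (Gna12), 7 (Rgs10), 11 (Gna13) and 13 (Rgs14). None of the 10 transcripts had a near-identical copy at 95% identity over 20% of its length.

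Of the 82 other genes of heterotrimeric G protein signaling that were listed, 50 passed the filter on low values. In wild-type BMDMs 8 of these 50 were called by the limma test with LPS+ATP, 1 higher and 7 lower, against 19.4% of all tested genes, 8.25% higher and 11.2% lower. The median log2 difference over the 50 was -0.31. In Nlrp3-/- BMDMs 8 were called, 2 higher and 6 lower, against 14.8% of all tested genes, 6.64% higher and 8.21% lower, with a median of -0.41. After median-ratio scaling these counts were 3 higher and 3 lower in wild-type and 2 higher and 2 lower in Nlrp3-/- BMDMs. In wild-type BMDMs, Gng10 (-0.82), Arrb1 (-0.90), Arhgef1 (-0.72) and Adcy7 (-0.90) were then no longer called, while Gnb4 (1.10) and Gngt2 (1.11) were. In Nlrp3-/- BMDMs, Gng10 (-0.95), Arrb1 (-0.97), Grk3 (-0.78) and Adcy9 (-0.83) were no longer called after that scaling. Of the 15 other RGS genes, 3 were tested and 0 were called. Rgs3, a Gi and Gq regulator, was at 1.05 ± 0.139 FPKM in control libraries of wild-type and at 1.90 ± 0.0669 FPKM in those of Nlrp3-/- BMDMs (0.50, SE 0.06), and Rgs12 at 0.835 ± 0.128 and 2.01 ± 0.3196 FPKM (0.71, SE 0.09). Between the genotypes, Rgs12 was called with a pseudocount of 0.1 in both treatments and as TPM in control libraries. Rgs12 would not have passed the filter on low values without the Nlrp3-/- libraries, so these calls are a description and not a test.

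Of the 13 other G alpha genes, 7 were tested and 0 were called with LPS+ATP in either genotype. Gnai2 was at 230 ± 3.35 FPKM in wild-type control and 133 ± 2.87 FPKM in wild-type LPS+ATP libraries (-0.79, SE 0.03, limma adjusted p = 2.1e-10), and Gnas, the Gs subunit that raises cAMP, at 49.4 ± 0.937 and 27.0 ± 0.413 FPKM (-0.85, SE 0.03, limma adjusted p = 3.5e-10). Of the 17 G beta and G gamma genes, 11 were tested. Gng2, a common G gamma subunit of leukocytes, fell 5.46-fold in wild-type (-2.27, SE 0.06, limma adjusted p = 1.5e-11) and 5.89-fold in Nlrp3-/- BMDMs (-2.31, SE 0.06), and Gng10 fell by 1.12 and 1.23 on the log2 scale. Gnb4 rose by 1.13 (SE 0.05, limma adjusted p = 1.8e-09) in Nlrp3-/- BMDMs, and was 0.88 (SE 0.05) higher in wild-type BMDMs, under the limit on fold.

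Of the 7 receptor kinases and arrestins, which silence active receptors, 6 were tested. Arrb1, encoding beta-arrestin 1, fell by 1.12 (SE 0.16, limma adjusted p = 4.6e-05) in wild-type and by 1.20 (SE 0.16) in Nlrp3-/- BMDMs, and Grk3 fell by 1.02 (SE 0.06) in Nlrp3-/- BMDMs and was at -0.63 (SE 0.06) in wild-type BMDMs. Arrb2 was not called, at 48.8 ± 2.32 FPKM in wild-type control and 28.4 ± 1.66 FPKM in wild-type LPS+ATP libraries. The 5 RIC8 chaperone and GPSM genes were all tested and 0 were called. Among them Gpsm3 was at 48.7 ± 8.83 and 34.3 ± 7.97 FPKM in the same groups. Of the 6 effectors of the G12 class, all tested, Arhgef1, an exchange factor whose RGS-like domain acts on Gna12 and Gna13, fell from 25.3 ± 0.344 to 11.99 ± 0.409 FPKM in wild-type BMDMs (-1.02, SE 0.05, limma adjusted p = 4.9e-09) and was at -0.84 (SE 0.05) in Nlrp3-/- BMDMs. Of the 6 effectors of Gq, 5 were tested, and Plcb2, a phospholipase C of blood cells, fell 3.96-fold in wild-type (-1.69, SE 0.07) and 3.64-fold in Nlrp3-/- BMDMs (-1.57, SE 0.07). Of the 13 cAMP enzymes, 7 were tested. The cyclase Adcy9 fell by 1.55 (SE 0.08) and 1.05 (SE 0.08), the cyclase Adcy7 fell by 1.20 (SE 0.13) in wild-type BMDMs, and the phosphodiesterase Pde4b, which degrades cAMP and is known to be induced by LPS, rose by 1.47 (SE 0.05) and 1.48 (SE 0.05).

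**Figure D5:**
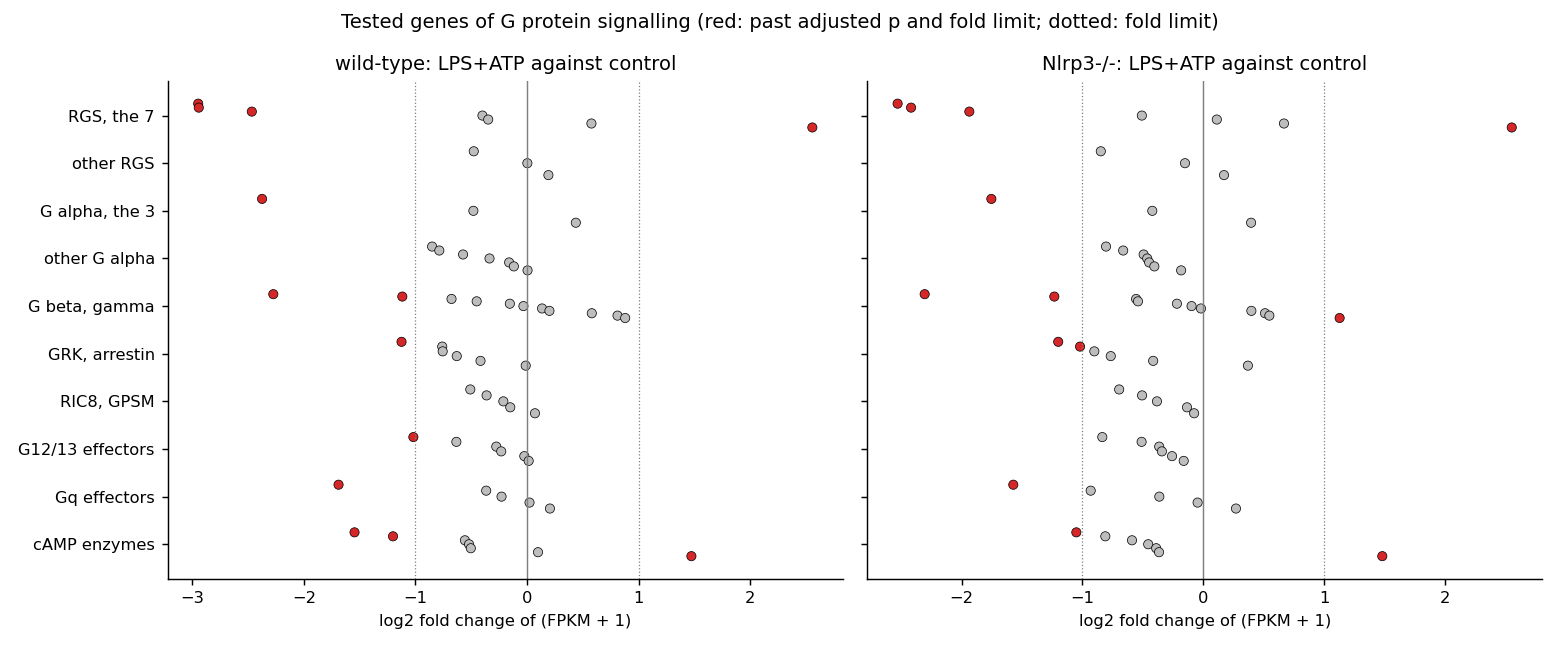
Log2 difference of (FPKM + 1), LPS+ATP against control, for the 10 genes and the 50 other tested genes of G protein signaling, 1 point a gene and 1 line of points a list, in wild-type (left) and Nlrp3-/- (right) BMDMs, with dotted lines at the fold limit and red points past both limits. Of the 50 others, 8 are past both limits in each genotype, with Gng2 the lowest at -2.27 and -2.31 and Pde4b the highest at 1.47 and 1.48.

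Between the genotypes in control BMDMs, 4 of the 50 other genes were called, all higher in Nlrp3-/- BMDMs, against 6.71% of all tested genes, 6.02% higher and 0.689% lower, and the median of the 50 was 0.14 against 0.09 over all tested genes. They were the Gi subunit Gnai1 (0.561 ± 0.115 against 2.55 ± 0.290 FPKM, 1.19, SE 0.10), the Gq-linked exchange factor Arhgef25 (0.713 ± 0.128 against 4.37 ± 0.509 FPKM, 1.65, SE 0.09) and the cyclases Adcy3 (1.245, SE 0.06) and Adcy6 (1.302, SE 0.06). Gnai1 and Arhgef25 were under 1 FPKM in every wild-type library and passed the filter on low values only through Nlrp3-/- libraries. Their calls are therefore a description of these differences and not a test. Each of the 5 fibroblast markers (Col1a1, Col1a2, Col3a1, Pdgfra and Dcn) was higher in Nlrp3-/- than in wild-type control libraries, as were the granulocyte and platelet marker sums given above, and their part in these differences was not tested. With LPS+ATP 0 of the 50 were called by limma, against 5.05% of all tested genes, while 30 passed the adjusted p alone, against 48.5% of all tested genes. The 4 genes called in control BMDMs still had higher means in Nlrp3-/- than in wild-type LPS+ATP libraries. They were at 1.52 against 0.572 FPKM (Gnai1), 1.81 against 0.463 (Arhgef25), 3.79 against 1.47 (Adcy3) and 2.97 against 1.26 (Adcy6). Adding 1 FPKM before the log understates differences at such levels, and all 4 were called as TPM and with a pseudocount of 0.1. As TPM, values are scaled up before 1 is added, so that setting acts like a smaller pseudocount and is not separate from the other. For Gnai1 and Arhgef25 these calls too are a description and not a test. For the difference in response 0 of the 50 were called by limma, against 2.15% of all tested genes, and 13 passed the adjusted p alone, against 27.7%.

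For each of the 10, the genes outside these lists whose profile over the 12 libraries was nearest were found by the root mean square difference of centred log2(FPKM + 1) values. The nearest were Rnf115 for Gna13 (0.0340) and Ankhd1 for Gnai3 (0.0358), and the most distant of the nearest genes was Rprd1b for Rgs1 (0.284). Rgs2 was nearest to Hpgds, a prostaglandin D synthase (0.118), which was at 30.0, 3.31, 21.6 and 4.67 FPKM on average without and with stimulation of wild-type BMDMs and then without and with stimulation of Nlrp3-/- BMDMs. Rgs16 was nearest to Rnd1 (0.151), at 0.390, 7.24, 1.68 and 13.4 FPKM in the same order. Gna12 was nearest to Man2a2 (0.0835), Rgs14 to Mitf (0.0670), Rgs10 to Mgst3 (0.151), Rgs18 to Nxpe5 (0.137) and Rgs19 to Tbcc (0.0633). These distances describe likeness over 12 libraries that share treatments, and carry no test.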

How the data were processed

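Gene expression was measured by RNA-seq of BMDM RNA in 12 libraries prepared with a TruSeq kit. The authors deposited 1 table of FPKM values for 55335 genes. The submitters' notes name GRCm39 and DESeq2 1.24.0 without a role, and the aligner, the counting program, its strand setting and the annotation are not given in the sources used here. Depth is unknown beyond the relative values reported, and no per-library column was left unused (0 unused). FPKM allows no count model, so limma 3.58.1 (R 4.3.3) was fitted to log2(FPKM + 1) with 1 mean per group, a variance trend and Benjamini-Hochberg adjustment over 12622 genes at 1 FPKM or more in at least 3 libraries. Scripts were tested on simulated data. Motifs were searched in RefSeq promoters and near copies with blastn 2.17.0. The 10 genes, the gene and marker lists and the motifs were chosen with earlier results of these data known. Genes named are mainly the 10, every other listed gene called in a comparison, the 2 most abundant genes of each list, and the nearest profiles. Some abundant genes that were not called are named only where a setting turned their sign. Alternatives were another pseudocount (0.1), no filter or a filter of 5 FPKM, no fold limit, TPM, median-ratio scaling, no variance trend, a replicate block and leaving out each library.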

Additional observations from a re-analysis of the deposited data

Results flagged for a closer look

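Rgs1 and Rgs2 stood out because the change in their difference between genotypes was past the limit of 1. That difference was below 0 in control BMDMs and above 0 with LPS+ATP. Gna12 turned in the same way (-0.26 and 0.37), with a change of 0.62 that stayed under the limit. The difference between genotypes was not called for Rgs1 or Rgs2 in either treatment, and only its change between treatments was. The change in that difference was 1.07 (SE 0.36) for Rgs1 and 1.01 (SE 0.09) for Rgs2 on the log2 scale, and ran from 0.81 to 1.35 for Rgs1 and from 0.95 to 1.06 for Rgs2 when each library was left out in turn. Both genes had been picked with these values known, so this is a description and not a test. In Rgs1 the 3 libraries of wild-type control spanned 3.89 to 8.76 FPKM and those of Nlrp3-/- LPS+ATP 3.53 to 7.60 FPKM, which overlapped the wild-type LPS+ATP libraries. Rgs1 was no longer called under 5 other settings, as given with the result. The part of donor sex, which cannot be told apart from genotype, was not tested.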

How the results depend on the processing

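Depth, strand and the counting of overlapping genes limit these values, and errors rest on 3 libraries a group. Over all alternatives, 922 values of the 10 genes stayed within the spread between replicates of the reported one and 68 moved beyond it, with no called value changing sign. The count of the 10 called with stimulation was 5 in both genotypes throughout, except with no fold limit, when it was 9 in each. Between genotypes in control it was 0, but 7 with no fold limit and 1 with a pseudocount of 0.1 (Rgs16, higher), as TPM (Rgs16, higher) or after median-ratio scaling (Rgs10, lower). Between genotypes with LPS+ATP it was 0, but 6 with no fold limit. For the difference in response it was 2, but 5 with no fold limit, 1 with a pseudocount of 0.1, with no filter, after median-ratio scaling, with no variance trend or with the replicate block, and 0 to 2 when each library was left out. Of the 50 other genes, with no fold limit 39, 44, 32, 30 and 13 were called in wild-type stimulation, Nlrp3-/- stimulation, genotype in control, genotype with LPS+ATP and difference in response, against 8, 8, 4, 0 and 0. A pseudocount of 0.1 gave 13 in Nlrp3-/- stimulation, 7 for genotype in control and 6 for genotype with LPS+ATP. Both genotype counts include Rgs12, Gnai1, Gnao1 and Arhgef25, which passed the filter on low values only with Nlrp3-/- libraries. Apart from no fold limit, shares of all tested genes called under the alternatives are not given here. A rise or fall in these counts therefore cannot be read as particular to these genes. A filter of 5 FPKM, which left 29 genes tested, gave 4 in Nlrp3-/- stimulation and 1 for genotype in control, TPM gave 7 for genotype in control and 4 for genotype with LPS+ATP, and median-ratio scaling gave 4 in Nlrp3-/- stimulation. The count for genotype with LPS+ATP was 0 to 1 when each library was left out, at 1 without wild-type LPS+ATP library 2 or 3. Median-ratio scaling turned the sign of Rgs3 (0.0371), Gnb2 (0.0739) and Plcb3 (0.22) in Nlrp3-/- stimulation, of Gnb1 (0.28), Gnb2 (0.16), Grk2 (0.30), Ric8a (0.0720) and Rhoa (0.0370) in wild-type stimulation, of Rhoa in control (-0.19), and of Arhgef1 (-0.16) and Plcb3 (-0.00585) with LPS+ATP. It moved the median of all tested genes in the same direction by its construction, and otherwise the cause was not tested. Apart from these, 21 values of other named genes gained and 11 lost their call. No pairing by replicate number was seen in the deviations from the group means. These correlated between -0.0565 and 0.0528 for 18 pairs of the same number and between -0.0687 and 0.0991 for other pairs. Such values cannot tell whether libraries of the same number shared a mouse or a culture. The replicate block changed no other count.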

Other observations

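Rgs4 and Rgs5, singled out after their values were seen, did not pass the filter on low values and were highest in Nlrp3-/- control libraries. Rgs4 was at 0.0949 ± 0.0377 FPKM (SD, n = 3) in wild-type control, 0.0474 ± 0.02998 in wild-type LPS+ATP, 0.986 ± 0.142 in Nlrp3-/- control and 0.407 ± 0.00731 in Nlrp3-/- LPS+ATP libraries. Rgs5, a gene known from pericytes and smooth muscle, was at 0.174 ± 0.0205, 0.0539 ± 0.0392, 0.701 ± 0.142 and 0.0639 ± 0.0355 FPKM in the same order. The fibroblast marker sum was also highest in that group, through Col1a1, Col1a2 and Col3a1, while Pdgfra (6.83 against 10.8 FPKM) and Dcn (33.002 against 39.3 FPKM) were higher in Nlrp3-/- LPS+ATP libraries. The granulocyte sum (226 to 237 FPKM), the platelet and megakaryocyte sum (122 to 130 FPKM) and the mast cell and basophil sum (10.1 to 11.7 FPKM) were highest there as well. Most of the platelet and megakaryocyte sum was Ppbp (108 FPKM), while Gp6 (0.523 against 1.68 FPKM) was higher in Nlrp3-/- LPS+ATP libraries. The part of these markers in the levels of Rgs4 and Rgs5 was not tested.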
